A study of Arabidopsis thaliana with 6 samples.

Results

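XERICO, BRH1 and related RING-H2 genes encode small proteins with a RING-H2 finger, a zinc-binding fold of cysteines and histidines. The group was given as 6 genes, and the members measured here were those that the platform annotation pairs, by symbol or locus, with a probe set of exactly 1 gene. Such a probe set, the group of short probes that reads a transcript, was found for 5 of the 6, out of 13356 genes in all. They were XERICO (AT2G04240), BRH1 (AT3G61460), AT5G41400, AT1G63840 and AT3G43430, each read by 1 probe set. AT4G00305 had none and is not analysed here. The gene table gives BRH1 the longer name brassinosteroid-responsive RING-H2 and attaches no RING name to the 3 locus-coded genes, whose place in the group rests on the given list.

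The arrays compared 3 samples of seedlings treated with chitooctaose at 1 µM with 3 samples that received an equal volume of water. All were whole Arabidopsis thaliana seedlings of the ecotype Col 0, aged 14 days, grown in shaken liquid medium under constant light and collected 30 min after the addition. Titles and protocols give that time, while the series text gives 3 min. One label of the chitooctaose samples, their short description, calls them water-treated, and here too titles and protocols were followed. The series text calls the samples biological replicates, and about 30 seeds were sown per tube. Chitooctaose is a fragment of chitin, the polymer of fungal cell walls, which plants sense through receptor kinases with LysM domains.

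A RING-H2 finger binds an E2 ubiquitin-conjugating enzyme, and most proteins that carry it act as E3 ligases, which pass ubiquitin to a chosen protein and so often mark it for the proteasome. XERICO is known for raising the abscisic acid content and drought tolerance of plants that overexpress it, and its transcript is raised by DELLA proteins and lowered by gibberellin. BRH1 was described through its transcript, which brassinosteroids lower. The comparison of chitooctaose with water asks which transcripts differ soon after the chitin fragment is sensed.

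Arrays of the same treatment were more alike than arrays of different treatments, with Pearson's r across probe sets of at least 0.977 in the 6 like pairs and at most 0.962 in the 9 unlike ones. Array medians lay between 155.7 and 169.2 intensity units. Of the marker genes listed for seedling organs, those measured were LHCB4.1, LHCB4.2 and LHCB4.3 for the shoot, and EXPA7 for the root. The light-harvesting gene LHCB4.1 had a mean of 9000 ± 591 in chitooctaose and 9325 ± 132 in water, and the root hair expansin gene EXPA7 had 107 ± 28.9 in chitooctaose and 137 ± 22.4 in water (SD, n = 3 each). None of the 4 passed the test used for genes outside the group (a limma model fitted to all tested probe sets, with a Benjamini-Hochberg adjusted p under 0.05), their log2 changes ran from -0.38 for EXPA7 to 0.20 for LHCB4.3, and no unadjusted p was under 0.05.

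The members were chosen with their response to chitooctaose known, so their values are given as a description, without a test. XERICO and BRH1 were lower in chitooctaose, XERICO by more than any other change in the group, while AT5G41400, AT3G43430 and AT1G63840 were higher. Both directions thus occurred within 30 min in this small set. For every member the intensities of the chitooctaose arrays lay wholly on one side of those of the water arrays, 5 of 5, where 19.5% of all 22746 tested probe sets had groups that did not overlap (9.1% higher and 10.4% lower in chitooctaose). Since the choice of members used this contrast, nothing is read from that count.

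XERICO had intensities of 177, 124 and 150 in the chitooctaose arrays, against 337, 317 and 384 in the water arrays. All 3 chitooctaose arrays were low and all 3 water arrays high, and the lowest water array was 1.79 times the highest chitooctaose array. The mean was 150 ± 26.1 in chitooctaose and 346 ± 34.8 in water (SD, n = 3 each), a log2 change of -1.21 (SE 0.15), or 2.32-fold lower. Of all tested probe sets 96 had a more negative change, of which 29 passed the limma test, and by its change XERICO ranked 58 from the most negative among the 13356 genes. In whole seedlings, less transcript per cell and fewer cells that carry it cannot be told apart, here or for the genes below.

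BRH1 had intensities of 459, 518 and 509 in the chitooctaose arrays, against 700, 623 and 653 in the water arrays. The groups did not overlap, but the gap was narrower than for XERICO, with the lowest water array 1.20 times the highest chitooctaose array. The mean was 495 ± 31.7 in chitooctaose and 659 ± 39.2 in water (SD, n = 3 each), a log2 change of -0.41 (SE 0.07), or 1.33-fold lower. Changes of this size were common, as 1457 probe sets had a more negative one.

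**Figure D1:**
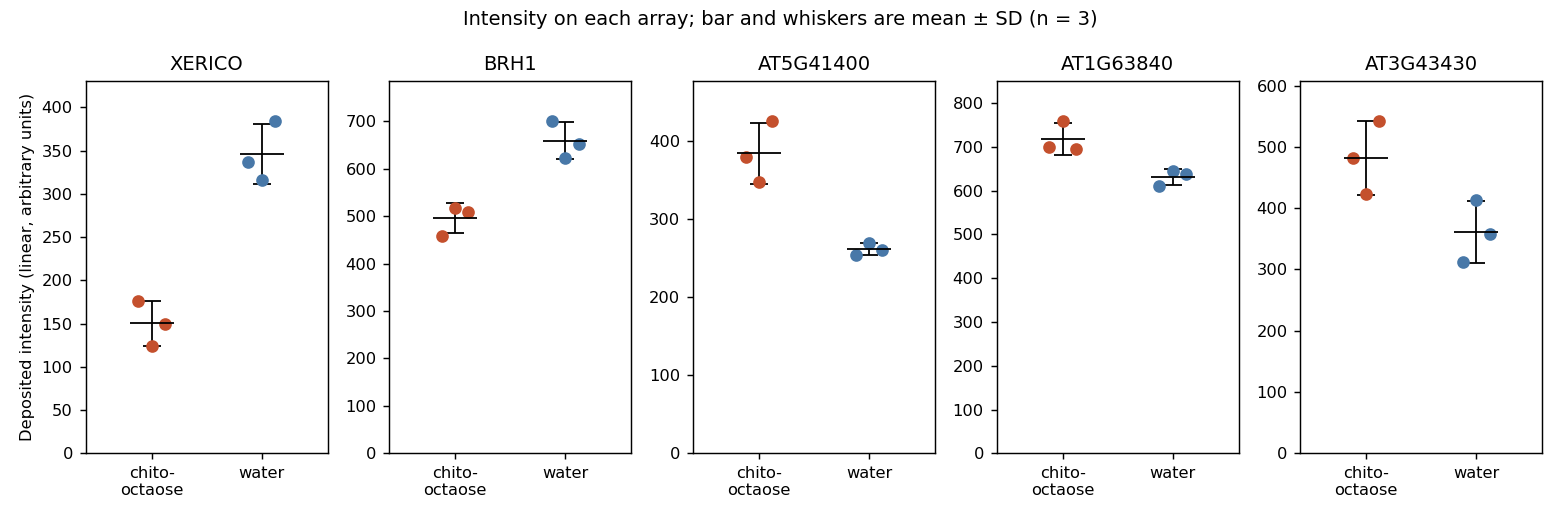
Deposited intensity (linear, arbitrary units, y axis from 0, one scale per panel) of the 5 RING-H2 genes on each array, with chitooctaose left of water in every panel. Points are single arrays, and the bar and whiskers are the mean ± SD of 3 arrays. XERICO and BRH1 lie lower in chitooctaose, AT5G41400, AT1G63840 and AT3G43430 higher, and the 2 groups overlap in no panel.

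AT5G41400 was higher in chitooctaose, with intensities of 380, 348 and 426, against 254, 269 and 261 in the water arrays. Its water arrays lay close together, with a coefficient of variation of 2.86%, while that of the chitooctaose arrays was 10.2%. The mean was 385 ± 39.1 in chitooctaose and 261 ± 7.48 in water (SD, n = 3 each), a log2 change of 0.55 (SE 0.09), or 1.47-fold higher.

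AT3G43430 had intensities of 481, 423 and 542 in the chitooctaose arrays, against 313, 413 and 358 in the water arrays. The groups nearly met, as the lowest chitooctaose array was 1.02 times the highest water array. The mean was 482 ± 59.9 in chitooctaose and 361 ± 50.1 in water (SD, n = 3 each), a log2 change of 0.42 (SE 0.14), or 1.34-fold higher. In size this is close to the change of BRH1, in the opposite direction, but the SD within groups was 0.19 on the log2 scale for AT3G43430 and 0.09 for BRH1.

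AT1G63840 had intensities of 699, 759 and 695 in the chitooctaose arrays, against 611, 645 and 639 in the water arrays. The mean was 717 ± 36.2 in chitooctaose and 632 ± 18.4 in water (SD, n = 3 each). The log2 change of 0.18 (SE 0.05), or 1.14-fold higher, was the smallest of the 5, beside a median of -0.04 over all tested probe sets.

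With 1 array left out, the log2 change was -1.34 to -1.08 for XERICO, -0.45 to -0.36 for BRH1 and 0.48 to 0.62 for AT5G41400. It was 0.32 to 0.52 for AT3G43430 and 0.14 to 0.21 for AT1G63840.

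**Figure D2:**
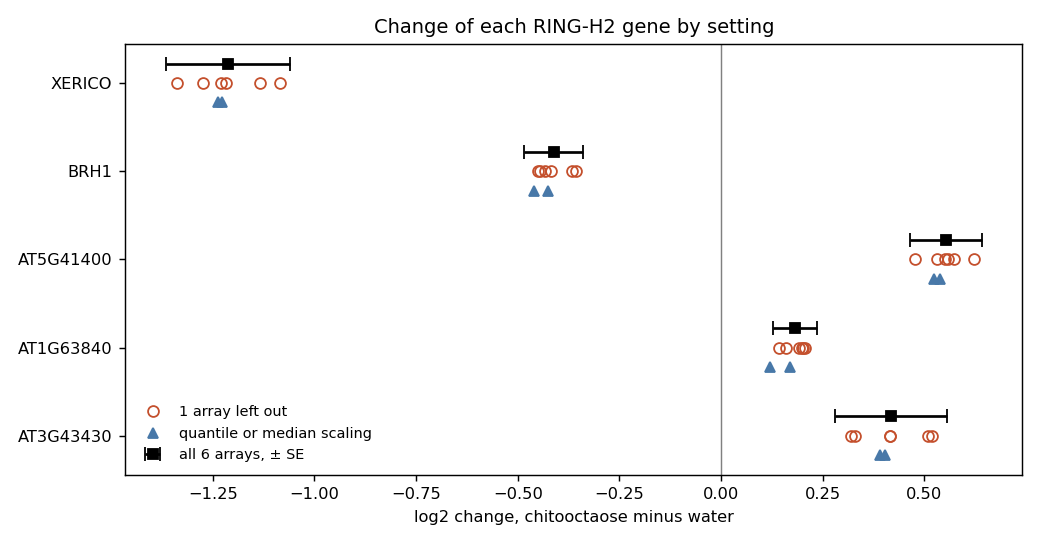
Log2 change, chitooctaose minus water (x axis), of each RING-H2 gene (rows). Black squares are the fit on all 6 arrays with its SE, open circles the 6 fits with 1 array left out, and triangles the fits after quantile or median scaling. Every value of XERICO and BRH1 lies below 0 and every value of the other 3 genes above 0.

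Against the distribution of all probe sets the members stood at different distances from the centre. The change of XERICO was above that of only 0.422% of the tested probe sets, and that of BRH1 above 6.41%. On the other side, AT5G41400 was above 94.5%, AT3G43430 above 92.4% and AT1G63840 above 84.0%. Mean intensities over the 6 arrays, read only as signal over background, were above those of 59.6% (XERICO) to 82.0% (AT1G63840) of the probe sets, and no member had an array at the floor of 16 below which intensities were set to 16.

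**Figure D3:**
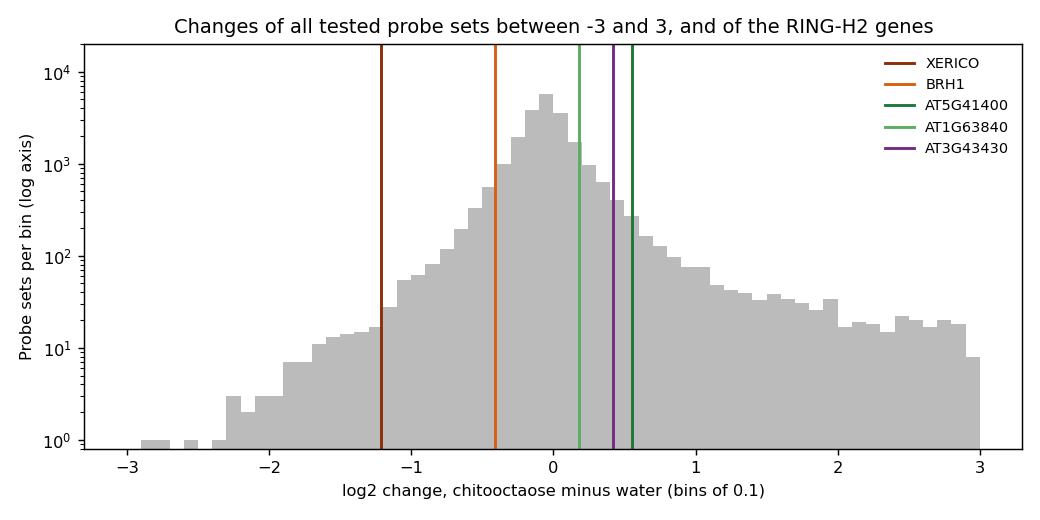
Number of tested probe sets per bin of 0.1 (y axis, log scale) by log2 change, chitooctaose minus water (x axis, drawn from -3 to 3), with the change of each RING-H2 gene as a vertical line. XERICO, at -1.21, stands in the sparse lower tail, while the other 4, from -0.41 to 0.55, stand on the flanks of the main peak.

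The replicate spread also differed among the members. Among the 500 probe sets nearest in mean intensity, the SD within groups of AT3G43430 was above that of 81.0% and that of XERICO above 73.8%. For BRH1 it was above 32.2%, for AT5G41400 above 31.6% and for AT1G63840 above 10.6%. The small change of AT1G63840 thus came with tight replicates and that of AT3G43430 with loose ones. XERICO had its widest spread in chitooctaose, with a coefficient of variation of 17.4%, against 10.1% in water.

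The profiles of the members over the 6 arrays were set against each other by the root mean square difference of their log2 values, each centred on its own mean. AT5G41400 and AT3G43430 were the closest pair, at 0.12, and XERICO and AT5G41400 the farthest, at 0.90. XERICO and BRH1, both lower in chitooctaose, were 0.45 apart, because the change of XERICO was larger.

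By the same measure, the nearest profiles to XERICO among 11675 other genes with no array at the floor were those of AT5G25280 (0.14), AT4G16447 (0.14) and WAG2 (0.15), a protein kinase gene, where the median over these genes was 0.62. The mean intensity of WAG2 was 99.7 ± 23.3 in chitooctaose and 243 ± 3.09 in water, and that of AT5G25280 was 399 ± 22.4 in chitooctaose and 973 ± 66.4 in water (SD, n = 3 each). AT4G16447 stood at 46.1 ± 2.04 in chitooctaose and 106 ± 5.58 in water (SD, n = 3 each). WAG2 was low in chitooctaose replicate 2, at 72.8, as XERICO was, whereas AT4G16447 and AT5G25280 had more even chitooctaose arrays.

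The nearest profiles to BRH1 were those of AT4G25780 (0.05), AT3G50650 (0.06) and AT2G07490 (0.06), with a median of 0.26 over the same genes. AT4G25780 had a mean of 94.2 ± 5.80 in chitooctaose and 125 ± 11.0 in water, and AT3G50650 61.8 ± 4.52 in chitooctaose and 81.6 ± 10.1 in water (SD, n = 3 each). AT2G07490 stood at 40.3 ± 3.19 in chitooctaose and 52.0 ± 2.06 in water (SD, n = 3 each). These 6 genes were selected for their likeness, which gives no information on shared function or control.

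**Figure D4:**
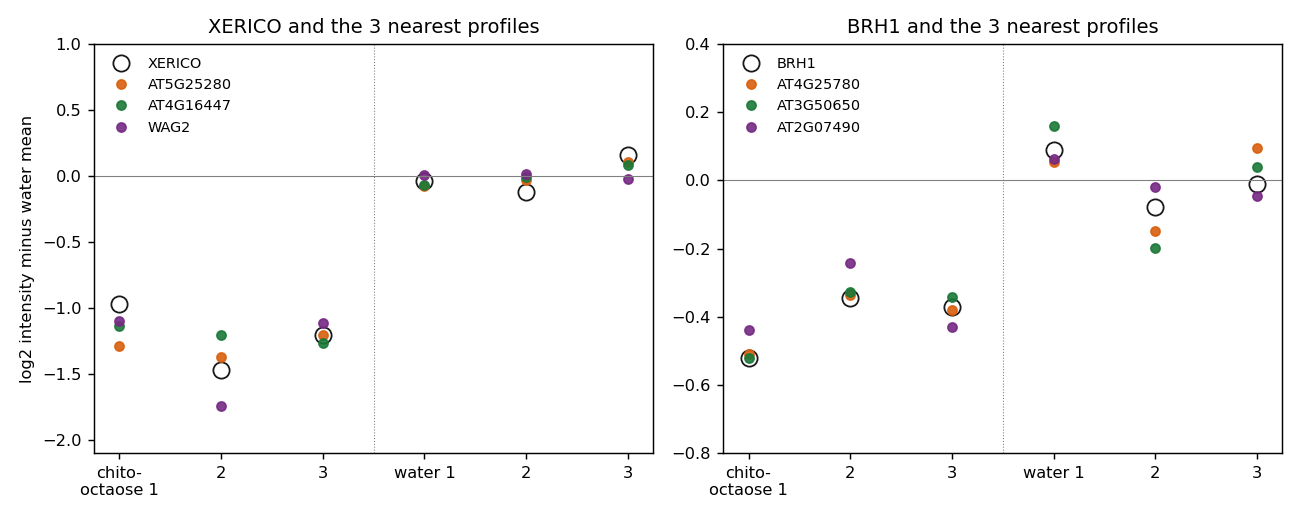
Log2 intensity minus the mean of the water arrays (y axis) on each of the 6 arrays (x axis, chitooctaose left, water right) for XERICO (left panel) and BRH1 (right panel), drawn as open black circles, and for the 3 genes with the nearest profiles, drawn as filled circles. The y axes differ: in chitooctaose XERICO and its neighbours lie between -1.74 and -0.97, and BRH1 and its neighbours between -0.52 and -0.24.

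Genes of the hormone pathways with which XERICO and BRH1 are linked, and of the E2 and E3 enzymes around them, were taken from 9 lists with 181 entries, of which 16 had a named probe set. Of these 16 genes RHF1A rose, none fell and 15 did not pass (limma, adjusted p under 0.05), where 5.04% of all tested probe sets passed, 4.24% as rises and 0.805% as falls. Their log2 changes ran from -0.46 to 1.49. With so few genes measured, the counts do not speak for the pathways. Of the 22746 tested probe sets, 8730 had no gene in the annotation and 503 had several, and these were not matched to lists. Over all lists, 10 symbols were not found in the gene table. A listed gene not measured here may thus still have a probe set on the array.

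Genes of gibberellin reception and DELLA turnover, upstream of XERICO in its known regulation, had 5 measured members of 21, with a median log2 change of -0.21 against -0.04 over all probe sets. None passed in limma, while 3 of the 5 had an unadjusted p under 0.05, each of them lower in chitooctaose. The share of all probe sets with such a p is not given here, so nothing is read from this count. The 3 were GID1A, GID1C and SLY1, of which the naming rule took SLY1 and the other 2 were chosen after their values were seen. GID1A, a gibberellin receptor gene, had intensities of 401, 334 and 370 in chitooctaose, against 465, 402 and 537 in water, so that the groups nearly touched (log2 change -0.34, SE 0.13, adjusted p = 0.31 in limma). GID1C, another receptor gene of this kind, had a mean of 75.4 ± 5.08 in chitooctaose and 105 ± 15.8 in water (SD, n = 3 each, limma adjusted p = 0.227). SLY1, the F-box gene whose product targets DELLA proteins, had 445 ± 33.8 in chitooctaose and 514 ± 15.9 in water (SD, n = 3 each, limma adjusted p = 0.251). The third receptor gene, GID1B, stood at 169 ± 14.9 in chitooctaose and 174 ± 15.7 in water, and the SLY1 relative SLY2 at 99.0 ± 4.08 in chitooctaose and 110 ± 2.45 in water (SD, n = 3 each).

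For abscisic acid 5 genes were measured of 69 listed, and none passed in limma. Of the metabolic genes, UGT71C5, which encodes a glucosyltransferase that inactivates the hormone, had 562 ± 41.5 in chitooctaose and 528 ± 38.4 in water (SD, n = 3 each, log2 change 0.09). UGT71B6, an enzyme gene of the same kind, was chosen after its values were seen, because its p without adjustment was under 0.05. Its intensities were dim, at 63.6, 104 and 90.7 in chitooctaose and 22.5, 43.5 and 27.6 in water, without overlap, and its log2 change of 1.49 (SE 0.31) missed the threshold (limma adjusted p = 0.0616). It passed in limma with a floor of 1, median centring, robust variances, the replicate block and without water replicate 2, with adjusted p between 0.0189 and 0.0488. It did not pass with quantile normalization (limma adjusted p = 0.0636) or without the trend (0.0667). Nor did it pass in the other runs without 1 array (0.0904 to 0.204). With a floor of 64 the change was 0.40 (adjusted p = 0.558), and the filter of dim probe sets removed the gene. The median of both metabolic genes was 0.79.

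Of the 3 measured readout genes of abscisic acid none passed in limma, and none had an unadjusted p under 0.05, with a median log2 change of 0.20. The dehydrin gene COR47 stood at 1855 ± 207 in chitooctaose and 1954 ± 435 in water (SD, n = 3 each). COR15A, a cold-regulated gene of the plastid stroma, had a log2 change of 0.20 (SE 0.22), and LEA4-5, a late embryogenesis abundant gene, one of 0.37 (SE 0.44) with 1 water array at the floor. Neither direction is settled, as without water replicate 1 the log2 change was -0.02 for COR15A and -0.08 for LEA4-5. That of COR47, -0.06 on all arrays, is not settled either. It was 0.11 without water replicate 3 and 0.03 without chitooctaose replicate 1. No receptor, phosphatase or kinase gene of the signalling list of 34 had a named probe set. Nor had any of the 18 RING ligase genes of abscisic acid responses.

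**Figure D5:**
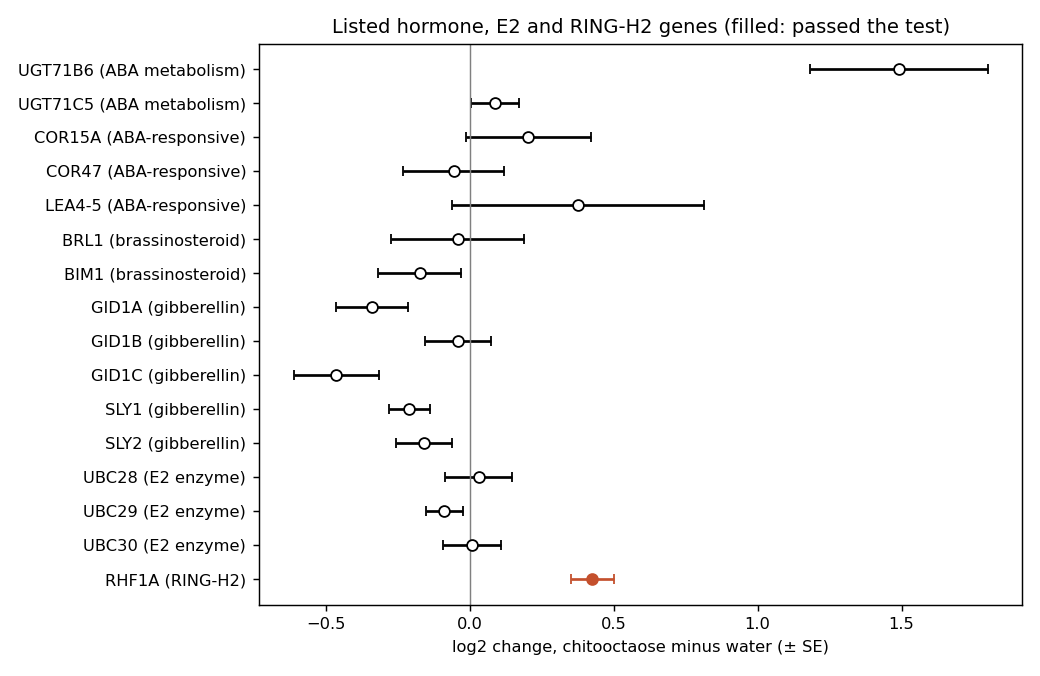
Log2 change, chitooctaose minus water, with its SE (x axis) for the 16 measured genes of the hormone, E2 and RING-H2 lists (rows, with the list in brackets). RHF1A, drawn filled, passed the limma test, while the 5 gibberellin genes lie between -0.46 and -0.04 and UGT71B6 stands far right with a wide error.

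Brassinosteroids, which lower BRH1, were represented by 2 genes of 44 listed, and neither passed in limma or had an unadjusted p under 0.05. BIM1, a partner of the brassinosteroid transcription factor BES1, had 280 ± 22.7 in chitooctaose and 319 ± 53.8 in water, and BRL1, a receptor gene, 65.9 ± 15.5 in chitooctaose and 67.6 ± 12.6 in water (SD, n = 3 each). Their median log2 change was -0.11. None of the listed synthesis genes of this hormone had a named probe set.

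The E2 enzyme UBC8 is a described partner of XERICO. A list of XERICO partners and E2 enzymes had 3 measured members of 8 listed. None of the 3 passed in limma or had an unadjusted p under 0.05. UBC28 stood at 6743 ± 993 in chitooctaose and 6551 ± 260 in water (SD, n = 3 each), and the 3 log2 changes, of UBC28, UBC29 and UBC30, were 0.03, -0.09 and 0.01. With 1 array left out they were as large as 0.16 for UBC28 without chitooctaose replicate 3 and -0.14 for UBC29 without water replicate 1, and UBC29 had -0.15 after quantile normalization.

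Among other RING-H2 genes, RHF1A, an E3 gene known for its part in gamete formation, was the measured member of 21 listed. It rose, with intensities of 243, 239 and 256 in chitooctaose, against 189, 173 and 188 in water, a log2 change of 0.43 (SE 0.08, limma adjusted p = 0.0352). Its call ended in each of the 6 runs without 1 array (adjusted p between 0.0796 without water replicate 2 and 0.141 without chitooctaose replicate 1). The ATL genes, a larger RING-H2 family of membrane proteins, had 3 members on named probe sets, ATL5, ATL8 and ATL63, chosen as a comparison after the files were seen. None passed in limma, and their log2 changes ran from -0.65 for ATL63 to 0.41 for ATL5, both with an unadjusted p under 0.05, with 0.08 for ATL8. The share of all probe sets with such a p is not given here. For ATL5 the lowest chitooctaose array was just 1.02 times the highest water array. ATL63 was dim, at 41.4 ± 9.41 in chitooctaose and 63.9 ± 4.86 in water (SD, n = 3 each). XERICO, at -1.21, thus lay below all 3, and the difference was not tested because XERICO was chosen on this contrast.

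Genes that move when seedlings are handled or wounded were listed as well, and 2 of 16 were measured. CML37 and CML38, calmodulin-like genes, both rose, where 4.24% of all tested probe sets passed as rises. With 2 genes measured, the count does not speak for the list. CML38 had a mean of 1619 ± 116 in chitooctaose and 328 ± 41.1 in water (SD, n = 3 each, limma adjusted p = 0.000123). CML37 stood at 491 ± 78.9 in chitooctaose and 20.9 ± 10.1 in water, with 1 water array at the floor (limma adjusted p = 0.00029). Water was added to the control seedlings in the same volume. The part of handling in the values of CML37, CML38 and the RING-H2 genes was not tested.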

How the data were processed

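Biotin-labelled cRNA, prepared from 7 µg of RNA of whole seedlings, was hybridised to 6 Affymetrix arrays, per the labels' protocols. The authors deposited an intensity on a linear scale for each probe set on each array. How they summarised probes, corrected background and scaled arrays is not given in the sources used here. For arrays, their number, 3 per group, limits the precision. A given probe set is compared between arrays, and intensities of different probe sets are not compared as transcript amounts. Of 22810 probe sets, 64 Affymetrix controls were left out. Names came from the platform annotation, updated by gene ID through a RefSeq gene table of TAIR10.1 (13436 of 13513 probe sets with exactly 1 gene), and 1 probe set per gene was kept by the highest mean. No coordinates or sequences were used, so the planned comparisons of proteins, promoters and a RING-H2 family found by sequence were not run.

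Intensities below 16 were set to 16 and log2 was taken. limma 3.58.1 (lmFit, eBayes with trend) in R 4.3.3 compared chitooctaose with water, 2-sided, with Benjamini-Hochberg adjustment over 22746 probe sets. A fold change is 2 to the power of the log2 change; means ± SD are of deposited intensities. The model was also run on simulated data, with independent normal noise and known changes added to brighter probe sets. The outcome is not given here. Genes were named as all measured members, the 2 called genes of each list with the largest change (or, with none called, the one with the highest mean) and the 3 genes nearest in profile to XERICO and to BRH1. Other listed genes in the text were named after their values were seen. The members and lists were chosen with earlier results of these data known. No pairing by the titles' replicate numbers was seen after group means were removed: arrays with the same number correlated at 0.05, 0.03 and -0.10. These correlations cannot show whether samples with the same number were handled together. Replicate 2 had the lowest array median in each group, 155.7 in water and 157.6 in chitooctaose.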

Additional observations from a re-analysis of the deposited data

How the results depend on the processing

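The direction of all 5 RING-H2 genes held in each of 14 settings (floors of 1 and 64, quantile normalization, median centring, eBayes without trend, robust eBayes, without the dimmest 40% of probe sets, the replicate block and 6 runs without 1 array). The sole size to move by more than its SD within groups was that of AT1G63840, to 0.12 after quantile normalization. The fold changes of the 5 genes are the same by construction under the block and under other variance models. They are also unchanged by both floors and by the filter of dim probe sets, as every member array lay above 64. Leaving out 1 array could not turn a direction either, since the groups of no member overlapped. Quantile normalization and median centring were thus the settings in which a direction could have turned.

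Over all probe sets 964 were called higher and 183 lower. There were 93 lower with the replicate block, 86 to 176 lower with single arrays left out, where fewer arrays enter the fit, 62 at an adjusted p under 0.01, and 482 higher and 62 lower with 1 probe set per named gene, where fewer are tested. The block, with 754 higher, kept 808 of the 1147 calls. Of the 6 arrays, 1 was most like the array of its own number in the other group. In the abscisic acid metabolism list 1 gene, UGT71B6, was called higher in place of 0 with a floor of 1, median centring, robust eBayes and the replicate block, and 0 to 1 with single arrays left out. RHF1A, the 1 call of the small RING-H2 list, was lost (0 higher) with the replicate block (limma adjusted p = 0.108) and with each array left out. The causes were not tested. No member had another probe set of exactly 1 gene, so that alternative gave no value. The number of arrays limits small changes such as those of BRH1 and AT1G63840.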
